A study of Mus musculus with 2 samples.

Results

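The adrenergic and cAMP signalling genes described here are 9 genes of the pathway through which noradrenaline activates brown fat: Adrb1, Adrb3, Adra1a, Adcy3, Prkar2b, Prkaca, Pde3b, Pde4d and Creb1. They were looked up by name, and each was given the sites of thyroid hormone receptor binding (TRBS) whose summit lay within 100 kb of its transcription start site (TSS). A TRBS is a peak of the deposited peak list, and its summit is the position where most fragments overlapped. Of the 5107 TRBS in the list, 12 lay within 30 kb of one of the 9 TSS and 21 within 100 kb. The question behind the choice was where the receptor sat around genes of the noradrenaline response, since thyroid hormone and noradrenaline act in synergy in brown fat.

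The tissue was brown fat of C57BL/6J males aged 8 to 12 weeks, in which brown adipocytes alone expressed TRα1 with a GS tag. What drove this expression is not given in the sources used here. All mice ate food with propylthiouracil, which blocks thyroid hormone synthesis, for 2 weeks and were then given thyroid hormone for 24 h. An antibody precipitated the receptor in 1 ChIP library, and 1 input library without antibody served as control. Both libraries came from the same genotype and treatment, and no tissue from hypothyroid animals left without the hormone was analysed here. With 1 library of each kind there was no replicate error and no test, and whether binding at these genes depends on the hormone was not addressed. The list holds no expression values, so the brown adipocyte label could not be checked against marker genes.

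Noradrenaline released by sympathetic nerves binds β-adrenergic receptors on brown adipocytes. These couple to the stimulatory G protein, which activates adenylyl cyclase, and the cAMP formed releases the catalytic subunits of protein kinase A (PKA) from their regulatory subunits. PKA then starts lipolysis and phosphorylates CREB, which drives transcription of cAMP-responsive genes such as Ucp1, while phosphodiesterases end the signal by hydrolysing cAMP. The α1-adrenergic receptors couple instead to calcium release. The thyroid hormone receptor binds DNA mostly as a heterodimer with RXR on a DR4, a direct repeat of the 6-base half-site AGGTCA with a spacer of 4 bases.

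The DR4 was searched on both strands, and up to 2 of the 12 bases of its half-sites were allowed to differ. Such an element was present in 5 of the 21 TRBS. These 5 are shown because they are the DR4 inside the TRBS of these genes. Elements outside the TRBS are counted further on, and some of those differ at fewer bases. Each is given 5′ to 3′ on its own strand, from the RefSeq sequence of GRCm38 (the same build as mm10), with the half-sites in capitals and 7 flanking bases on each side. The first lies in the TRBS 14188 bp downstream of the Adrb1 TSS (chr19:56736395-56736424, plus strand), the next 4417 bp downstream of the Adra1a TSS (chr14:66639669-66639698, minus strand). The following pair lies 19030 bp (chr12:4152112-4152141, minus strand) and 59510 bp (chr12:4192500-4192529, minus strand) downstream of the Adcy3 TSS, and the last 8725 bp upstream of the Prkaca TSS (chr8:83964238-83964267, minus strand).
Adrb1 DR4: ccaaatgAGTTCAagtaAGGGCAcattaac
Adra1a DR4: acaaggaAGGCCAtgtaGGGTCAgccactc
Adcy3 first DR4: gatgctgAGGTCGtagcAGGCCAggatcct
Adcy3 second DR4: caaagaaAGCTCActggAGTTCAgagtagc
Prkaca DR4: aggagcaAGGTCAtgctAGTACAgagacgc

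All 5 elements differed from the DR4 consensus at 2 positions. Counted from 1 at the first base of the 5′ half-site, with the consensus base first, the differences were G3T and T14G at Adrb1, T4C and A11G at Adra1a, A6G and T14C at the first Adcy3 element, G3C and G13T at the second, and G13T and T14A at Prkaca. The Prkaca element thus kept an intact 5′ half-site and carried both changes in the 3′ one. The elements lay 22 bp from the summit at Adrb1, 16 bp at Adra1a, 6 bp at the first Adcy3 site and 16 bp at Prkaca. The second Adcy3 element was 98 bp from its summit, near the edge of that peak.

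Of the 9 genes, 5 had at least 1 TRBS whose summit lay no more than 30 kb from the TSS: Adrb1, Adra1a, Adcy3, Prkar2b and Prkaca. Among all 21938 protein-coding genes of the annotation, 16.7% met the same rule. Each of the 5 genes had at least 2 such TRBS, which held for 4.55% of all protein-coding genes. When only TRBS with a score of at least 100 were counted, 2 of the 9 genes, Adcy3 and Prkaca, had at least 2, against 2.48% of all. Adcy3 and Prkar2b had 3 each, and Adrb1, Adra1a and Prkaca had 2 each. At 100 kb the same 5 genes were found, against 38.3% of all genes with at least 1 TRBS and 17.6% with at least 2. The numbers were then 5 each for Adra1a, Adcy3 and Prkar2b, 4 for Adrb1 and 2 for Prkaca. At least 5 within 100 kb were listed for 596 protein-coding genes (2.72%). Adrb3, Pde3b, Pde4d and Creb1 had none at either limit. All sites thus lay near a pair of receptor genes, the cyclase gene and both PKA genes, and none lay within 100 kb of the TSS of the phosphodiesterase genes, Creb1 or Adrb3. With 9 genes chosen by name these counts are a description.

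**Figure D1:**
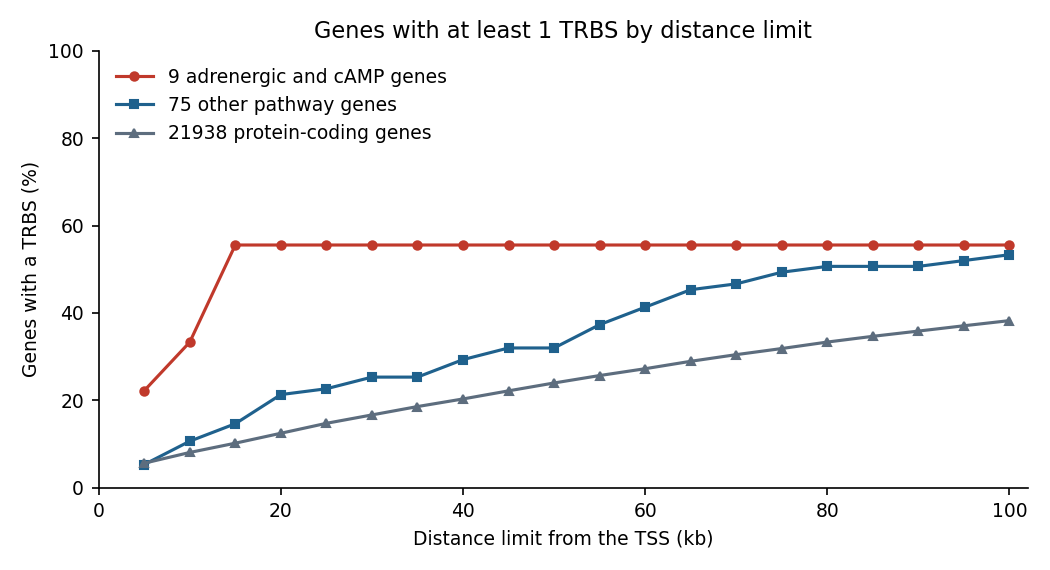
Share of genes with at least 1 TRBS (percent, y axis) against the distance limit from the TSS (kb, x axis), for the 9 adrenergic and cAMP genes, the 75 further pathway genes and all 21938 protein-coding genes. The curve of the 9 genes is level at 5 genes from 15 kb on, while that of all genes rises from 16.7% at 30 kb to 38.3% at 100 kb.

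**Figure D2:**
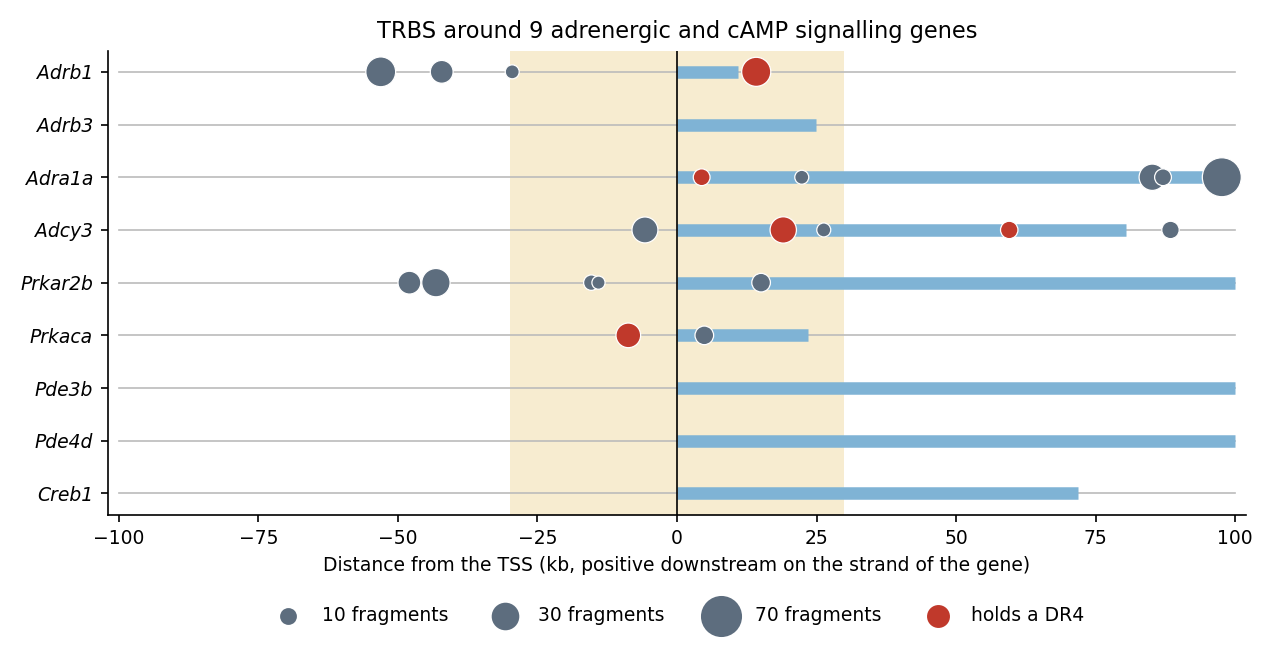
Map of the TRBS around the TSS of each of the 9 genes, with the distance of the summit from the TSS in kb on the x axis and positive values downstream. Blue bars are gene bodies, the beige band marks 30 kb on each side of the TSS, the area of a circle grows with the ChIP fragments at the summit, and red circles hold a DR4. Sites are present at 5 genes and absent at Adrb3, Pde3b, Pde4d and Creb1.

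Adrb1 encodes the β1-adrenergic receptor, which in brown fat responds to noradrenaline along with the β3 receptor. Its TSS is at position 56722199 of chromosome 19, on the plus strand. The 4 TRBS lay 53071 bp (chr19:56668813-56669420), 42149 bp (chr19:56679819-56680319) and 29519 bp (chr19:56692541-56692849) upstream and 14188 bp downstream (chr19:56736155-56736656). All of them were intergenic, and Adrb1 was the nearest protein-coding gene for each. They held 41 ChIP fragments at the summit (95% Poisson interval 29.4 to 55.6), 24 (15.4 to 35.7), 9 (4.12 to 17.1) and 39 (27.7 to 53.3), in that order. The fold over the input background, after 1 was added to both, was 18.9, 17.5, 6.99 and 28.0. The fragments were worked out from the deposited fold and p-value. They carry no molecular identifiers and may include copies of 1 molecule, so the intervals cover counting error only. The downstream site is beyond the 3′ end of the gene and holds the DR4 printed above. Its score, which is 10 times the −log10 of the q-value, was 582 and higher than that of 90.4% of the other TRBS. The most distant upstream site and the downstream site had overlapping intervals of fragments. The background was 1.22 fragments at the former and 0.430 at the latter, and the fold differed accordingly. The value of 0.430 is the lowest background in the whole list, and 7 of the TRBS near these genes have it. It need not be input counted at the summit, so this difference in fold is not read as a difference in binding.

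The Adrb1 site 53071 bp upstream lies 10 bp from the start of a noncoding transcript, AC116849.1. It held no DR4, but it held 2 exact half-sites (AGGTCA or GGGTCA on either strand). The 151 bases around its summit are shown on the plus strand as an example of a deep site without a DR4 (chr19:56669053-56669203, GRCm38), with the 1 half-site of the window in capitals.
Adrb1 upstream site: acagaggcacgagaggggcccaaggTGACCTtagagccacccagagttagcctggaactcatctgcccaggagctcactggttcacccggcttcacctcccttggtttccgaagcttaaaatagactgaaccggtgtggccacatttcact

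Adra1a encodes the α1A-adrenergic receptor, which signals through calcium rather than cAMP. The gene runs from 66635251 to 66771168 of chromosome 14 on the plus strand and spans 135918 bp, and all of its TRBS lie within the gene body. The nearest site, 4417 bp downstream (chr14:66639568-66639849), lay in an exon of an Adra1a transcript and held 13 fragments (6.92 to 22.2), with a fold of 9.52. The next, 22346 bp downstream in intron 2 (chr14:66657376-66657871), held 9 fragments (4.12 to 17.1), with a fold of 6.99. The deepest site of all 9 genes lay further in, 97590 bp downstream of the TSS (chr14:66732575-66733172). It held 70 fragments (54.6 to 88.4) over a background of 0.430, the lowest of the list. Its fold was 49.7 and its score 1230, higher than that of 97.6% of the other TRBS. Its interval did not overlap that of any other site of the gene. It is located in the 3′ UTR of an Adra1a transcript, and it has no DR4. The 30 bases around its only half-site, in capitals, are shown (chr14:66732772-66732801, GRCm38, plus strand). They lie upstream of the summit at 66732841.
Adra1a distal site: gtgtgacatgtaAGGTCAaaaccagctgtg

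Between these sites, the one at 85132 bp held 32 fragments (21.9 to 45.2) with a fold of 17.2, and that at 87057 bp held 13 with a fold of 7.32. The former has a pair of exact half-sites that point away from each other, 16 bp apart, an arrangement other than that of the DR4. The 151 bases around its summit are shown for this pair, in capitals (chr14:66720308-66720458, GRCm38, plus strand). Beyond 100 kb a further pair of TRBS lay in the gene, at 101976 bp with 12 fragments (6.20 to 21) and at 113232 bp with 11 fragments, so 7 TRBS lie in the gene body in all.
Adra1a intron 2 site: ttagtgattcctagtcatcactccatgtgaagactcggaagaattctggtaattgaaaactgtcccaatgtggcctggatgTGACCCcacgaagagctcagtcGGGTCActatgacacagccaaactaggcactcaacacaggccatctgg

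Adrb3 encodes the β3-adrenergic receptor, the main β receptor of rodent fat cells. No TRBS was listed within 100 kb of its TSS at 27250616 of chromosome 8, or of any of its 5 annotated transcript starts. The nearest was 244459 bp away, with 15 fragments and a fold of 11.2, and was closer to Erlin2, at 17104 bp. TRBS were thus listed near Adrb1 and Adra1a and not near Adrb3, and this contrast was not tested. A gene without a TRBS has no peak in this list, which does not show that TRα1 was absent there. The lowest number of fragments at any TRBS was 5, and coverage at positions without a peak was not analysed here.

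Adcy3 encodes adenylyl cyclase 3, one of the cyclases that make cAMP in adipocytes. Its TSS is at position 4133103 of chromosome 12, on the plus strand. Within 30 kb there were 3 TRBS, 5744 bp upstream (chr12:4127167-4127626), 19030 bp downstream in intron 2 (chr12:4151854-4152357) and 26285 bp downstream in the same intron (chr12:4159251-4159546). They held 31 fragments (21.1 to 44.0), 32 (21.9 to 45.2) and 9 (4.12 to 17.1). The first 2 had overlapping intervals of fragments, while their folds were 12.7 and 23.1 over backgrounds of 1.52 and 0.430 fragments. Here too 0.430 is the lowest background of the list, and the difference in fold is not read as one in binding. The intronic site holds the first DR4 of this gene, and its score of 449 was higher than that of 86.0% of the other TRBS. The third, at 26285 bp, lay 212 bp from the start of a noncoding Adcy3 transcript and had a fold of 6.88.

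Upstream of Adcy3, 2 half-sites were found at the site 5744 bp from the TSS, and the 151 bases around its summit are shown because both fall in this window, in capitals (chr12:4127284-4127434, GRCm38, plus strand). The more distant Adcy3 sites were 59510 bp downstream in intron 3, with 14 fragments (7.65 to 23.5) and a fold of 8.15, and 88395 bp downstream, in an intron of Cenpo, with 14 fragments and a fold of 4.79. Ptrhd1 was the nearest protein-coding TSS for both, 41414 and 12529 bp away. Internal Adcy3 starts, of transcripts annotated as retaining an intron, lay 2208 bp from the former site and 18230 bp from the latter. The last site was repeat-masked over its whole length, was a tandem repeat with a period of 44 bp, and had a background of 2.13 fragments. The part of the repeat in its value was not tested.
Adcy3 upstream site: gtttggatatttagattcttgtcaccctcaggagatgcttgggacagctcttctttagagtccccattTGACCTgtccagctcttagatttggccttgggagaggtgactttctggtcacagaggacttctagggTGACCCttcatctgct

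Prkar2b encodes RIIβ, the PKA regulatory subunit that prevails in fat. Its TSS is at 32061296 of chromosome 12, and the gene lies on the minus strand. The 3 TRBS within 30 kb lay 15346 bp (chr12:32076480-32076758) and 14065 bp (chr12:32075121-32075576) upstream, both intergenic, and 15063 bp downstream in intron 1 (chr12:32046048-32046429). They held 11 fragments (5.49 to 19.7), 8 (3.45 to 15.8) and 16 (9.15 to 26.0), with folds of 7.46, 5.52 and 9.24. These 3 intervals overlapped one another. The site at 14065 bp had a score of 43, the only TRBS within 30 kb of these genes under the score of 60 that the study's methods used as minimum, and it held 4 exact half-sites. The site at 15346 bp was 50.2% repeat-masked.

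Farther upstream of Prkar2b were a TRBS at 43183 bp (chr12:32104203-32104691) with 37 fragments (26.1 to 51.0), a fold of 26.6 and a score of 543, higher than that of 89.3% of the other TRBS, and one at 47935 bp with 24 fragments (15.4 to 35.7), a fold of 7.99 and a background of 2.13. None of the 5 TRBS of Prkar2b held a DR4. The summit region of the deepest, at 43183 bp, is shown because it is a deep site without a DR4 in which the 1 half-site of the peak lies outside the 151 bases printed (chr12:32104404-32104554, GRCm38, plus strand).
Prkar2b upstream site: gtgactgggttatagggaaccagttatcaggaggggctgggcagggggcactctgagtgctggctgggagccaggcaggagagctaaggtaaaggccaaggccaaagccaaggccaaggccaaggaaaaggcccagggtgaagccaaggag

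Prkaca encodes the catalytic subunit α of PKA. Its TSS is at 83972993 of chromosome 8, on the plus strand, in a gene-rich stretch with 4 other protein-coding TSS within 30 kb and 11 within 100 kb. It had 2 TRBS, 8725 bp upstream in an intron of Asf1b (chr8:83964099-83964607) and 4889 bp downstream in intron 1 (chr8:83977773-83978178). They held 28 fragments (18.6 to 40.5) and 16 (9.15 to 26.0), with folds of 13.1 and 10.8, and their intervals overlapped. The upstream site holds the DR4 with an intact 5′ half-site. The downstream one lay 999 bp from a second Prkaca start, at 83976883.

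The phosphodiesterases Pde3b and Pde4d, which hydrolyse cAMP, and Creb1, which encodes the transcription factor CREB, had no TRBS within 100 kb of their TSS. The TRBS closest to the Pde3b TSS (114415281, chromosome 7) lay 375110 bp upstream, with 23 fragments, in the 3′ UTR of Spon1. For Creb1 (64532645, chromosome 1) it lay 306431 bp upstream with 25 fragments and a fold of 13.6, nearer to Klf7, at 103932 bp. For Pde4d (108449948, chromosome 13) it lay 1077940 bp upstream.

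Pde4d spans 1503514 bp and has 20 annotated transcript starts, so most of the gene lies far from its first start. In its body, 2 TRBS were listed. The one 1452521 bp downstream, in intron 7, held 6 fragments (2.2 to 13.1) with a fold of 4.71 and a score of 29, and lay 633 bp from an internal start of a transcript annotated as subject to nonsense-mediated decay. The other, 1465036 bp downstream in intron 8, held 15 fragments (8.40 to 24.7) with a fold of 8.32 and a score of 106, lay 7927 bp from an internal start, and held 5 half-sites. Counting from any annotated transcript start in place of the first, Pde4d joined the genes with a TRBS within 30 kb, giving 6 of 9 genes, against 19.6% of all protein-coding genes by the same count.

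The depth of the TRBS near these genes was close to that of the whole list. The 21 sites held 8 to 70 fragments with a median of 16, and the 5090 TRBS for which fragments could be solved had a median of 17, with quartiles of 11 and 27. The median fold was 9.52 against 9.83 in the whole list, and the median score was 141 in both. Of the 21, 8 (38.1%, 95% Wilson interval 20.8 to 59.1) lay above the upper quartile of fragments of the whole list, which 24.2% of these 5090 did. The 12 sites within 30 kb had a median of 14.5 fragments and the 9 more distant ones a median of 24. The site with most fragments lay outside the 30 kb limit for Adra1a, Adrb1 and Prkar2b, although at Adrb1 it exceeded the nearer site by less than the counting error. Closest inside this limit was the Adrb1 site at 29519 bp with 9 fragments, and closest outside was that at 42149 bp with 24. At the 100 kb limit the Adra1a site at 97590 bp with 70 fragments was the last inside, and that at 101976 bp with 12 the first outside.

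**Figure D3:**
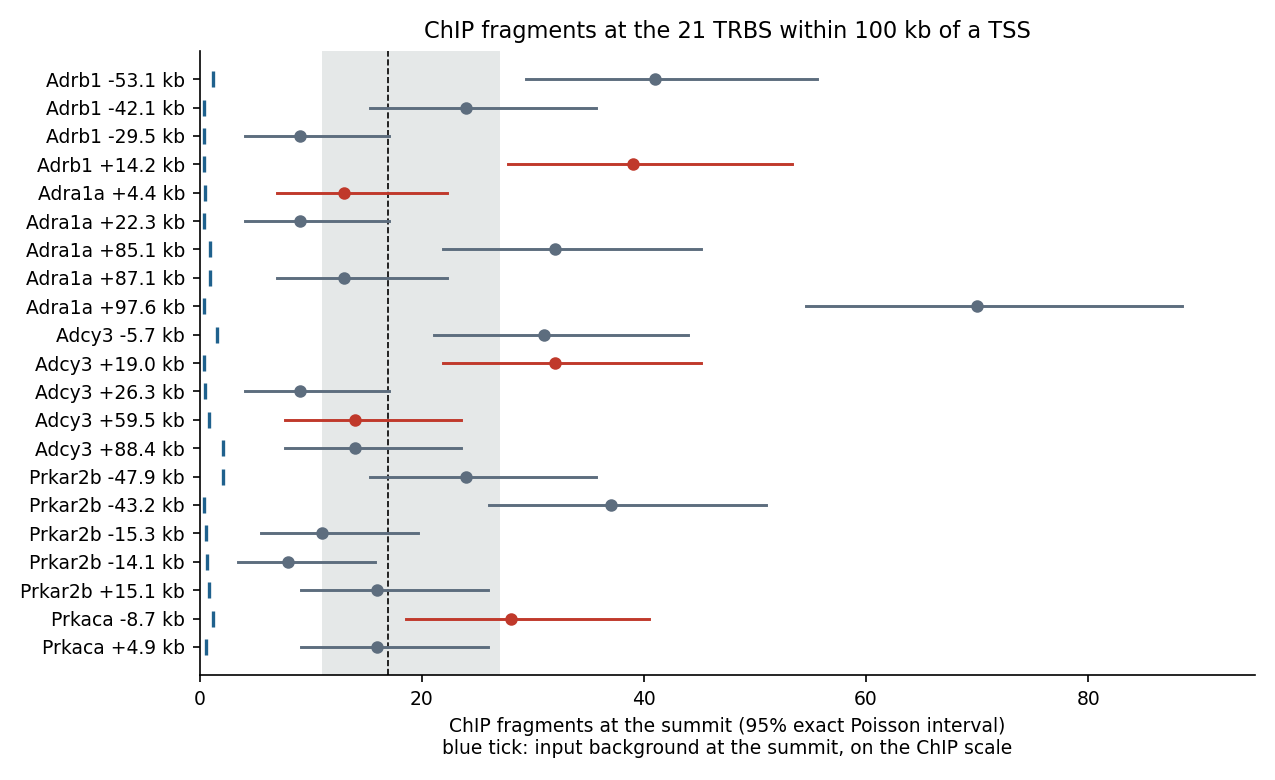
ChIP fragments at the summit of each TRBS within 100 kb of the genes' TSS, by gene, with 95% Poisson intervals that cover counting error only. Red marks TRBS that hold a DR4, and a blue tick marks the input background, which is below 0.430 at no TRBS of the list. The grey band spans the quartiles of all TRBS from 11 to 27 fragments, and the dashed line is their median of 17. The Adra1a site with 70 fragments stands above all others.

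None of the 21 sites lay in a promoter, taken as the 1000 bp before the first start of a protein-coding gene and the 100 bp after it, while 370 of all TRBS (7.24%) did. The closest TRBS to a TSS of these genes was 4417 bp away, and 4 were within 10 kb. By region 10 were intronic (47.6%, against 47.2% of all TRBS) and 9 intergenic (42.9% against 38.2%). A 3′ UTR held 1 (4.76% against 2.00%) and another exon 1 (4.76% against 1.66%). Downstream of the TSS lay 12, against 9 upstream, and no such split over all TRBS is given here. In 19 of 21 the gene named was also the nearest protein-coding TSS, the exceptions being the distant Adcy3 sites nearest to Ptrhd1. Another TRBS lay within 10 kb of 9 of the 21 (42.9%, 24.5 to 63.5), against 29.7% of all TRBS.

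The DR4 share of the 21 sites was 23.8% (5 sites, 10.6 to 45.1), and that of all TRBS, 31.98%, lay inside this interval. Within 30 kb, 4 of 12 sites held one (33.3%, 13.8 to 60.9). When only 1 base was allowed to differ, 0 of 21 held one, with a 95% Wilson interval that reaches 15.5%, against 7.23% of all TRBS. An exact half-site was present in 16 of the 21 (76.2%), against 72.5% of all TRBS. In the same 201-bp window around each summit, it was present in 15 of 21 (71.4%) against 58.8%.

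The other motifs were counted in the same window of 201 bp, on both strands, and several share letters with each other. The cAMP response element TGACGTCA, the site of CREB, was present in 0 of the 21 windows, against 0.215% of all TRBS. Its 5-base part TGACG was present in 3 (14.3%) against 9.24%. A DR1, which shares its half-site with the DR4, was present in 3 (14.3%) against 8.64%, and an E-box, CACGTG, in 2 (9.52%) against 4.44%. The C/EBP motif TTRCGCAAY (R is A or G, Y is C or T) was present in 2 (9.52%) against 9.24%, the EBF motif in 1 (4.76%) against 2.55% and the AP-1 motif TGANTCA in 1 (4.76%) against 7.23%. The NF1 motif and the SP/KLF motif GGGGCGGGG were present in 0, against 1.39% and 2.86%. For AP-1 and the E-box the direction depended on the stretch searched. Over the whole peak, AP-1 was present in 4 (19.0%) against 14.6% and the E-box in 1 (4.76%) against 8.99%. A match describes letters in a sequence and not a bound factor.

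**Figure D4:**
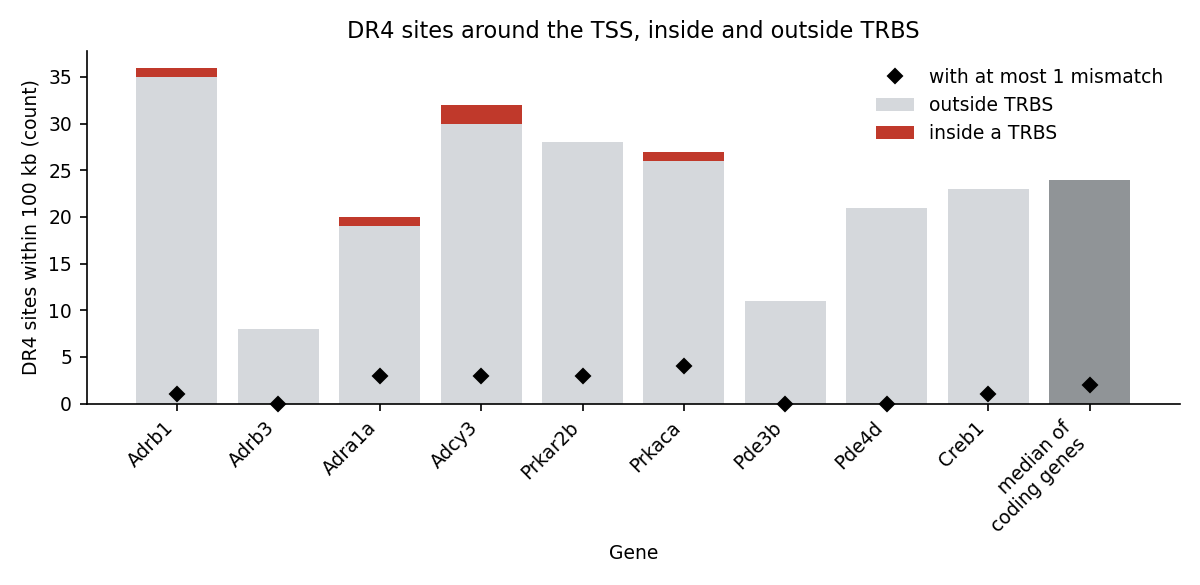
Number of DR4 (y axis, count) no more than 100 kb from the TSS of each gene and of the median protein-coding gene, with those inside a TRBS in red, those outside in grey, and those that differ from the consensus at 1 base or none as diamonds. The counts run from 8 at Adrb3 to 36 at Adrb1, and 0 to 2 per gene lie in a TRBS.

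The 100 kb windows hold many more such elements than lay in a TRBS. Adrb1 had 36 DR4, Adcy3 32, Prkar2b 28, Prkaca 27, Creb1 23, Pde4d 21, Adra1a 20, Pde3b 11 and Adrb3 8, and the median protein-coding gene had 24. In sum 5 of the 206 elements (2.43%, 1.04 to 5.56) lay in a TRBS, against 2063 of 290078 (0.711%) across the genome, which includes sequence far from any gene. Of the 15 elements with at most 1 mismatch, none did. Across the genome 425 of 22256 (1.91%) did, and 15 elements are too few to set none apart from this share. Within 30 kb, 4 of 61 elements that differ at up to 2 bases lay in a TRBS (6.56%, 2.58 to 15.7), beside the same 0.711% across the genome. Adrb3, with no TRBS, had no DR4 within 30 kb of the TSS used, which is the first of its 5 annotated transcript starts. Creb1 and Pde4d each had 8 and also no TRBS. Adra1a likewise had 8 within 30 kb, 1 of them in its TRBS.

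A list of 75 further genes of the pathway was taken as context. Of these, 19 (25.3%) had a TRBS at most 30 kb away, against 16.7% of all protein-coding genes, and 6 had at least 2, against 4.55%. Within 100 kb it was 40 (53.3%), against 38.3%. By role, the 19 genes with a TRBS at most 30 kb away were 2 of 6 adrenergic receptor genes, 1 of 9 G proteins, 3 of 9 adenylyl cyclases, 0 of 4 PKA subunits, 2 of 10 PKA inhibitors or anchors, 3 of 14 phosphodiesterases, 4 of 9 genes of the CREB family and its coactivators, 1 of 3 salt-inducible kinases, 3 of 7 genes of receptor desensitisation and 0 of 4 other effectors. Prkar2b and Prkaca were thus the only PKA subunit genes of both lists with a TRBS at most 30 kb away. Within 100 kb, 1 of the other 4 PKA subunit genes had one.

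The 12 further genes whose strongest TRBS had the highest scores were chosen by rule. Among the cyclases, Adcy10, the soluble enzyme, had 99 fragments (80.5 to 121) with a fold of 61.7 in an intron 25283 bp from the TSS. Adcy9 had 88 (70.6 to 108) 15187 bp upstream, with 3 TRBS within 30 kb, and Adcy7 had 44 (32.0 to 59.1) in an intron, with a DR4 of 1 mismatch. The intervals of Adcy10 and Adcy9 lay above those of all 3 near sites of Adcy3, and that of Adcy7 overlapped with the deeper pair. Atf2, a factor of the CREB family, had 88 fragments in an intron of Atp5g3, nearer to another TSS. Grk3, a kinase that desensitises receptors, had 67 (51.9 to 85.1) 194 bp upstream of its TSS, and Sik1, a kinase that restrains CREB coactivators, had 43 with a DR4 of 1 mismatch 6436 bp upstream.

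Among the phosphodiesterases, Pde8a had 41 fragments and 4 TRBS within 30 kb, Pde4a had 25 and Pde4c had 27. Pde4c had 3 other protein-coding TSS closer to its site. Gnb1, a G protein β subunit, had 42 fragments in an intron of Tmem52. Adra1b, the α1B-adrenergic receptor, had 26 fragments 28219 bp upstream, and Akap1, an anchor of PKA, had 21 and 4 TRBS. Of the 12 sites, 3 lay closer to another protein-coding TSS. A DR4 was present in 7, against 31.98% of all TRBS and 34.4% of those with a score of at least 60. Neither share is matched to the scores of the 12 sites, which run from 212 to 1734, so no excess of DR4 is read from them. These sites held 21 to 99 fragments, and since they were chosen by score they are deeper by choice than the 12 near sites described above, of which 8 had at most 20.

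**Figure D5:**
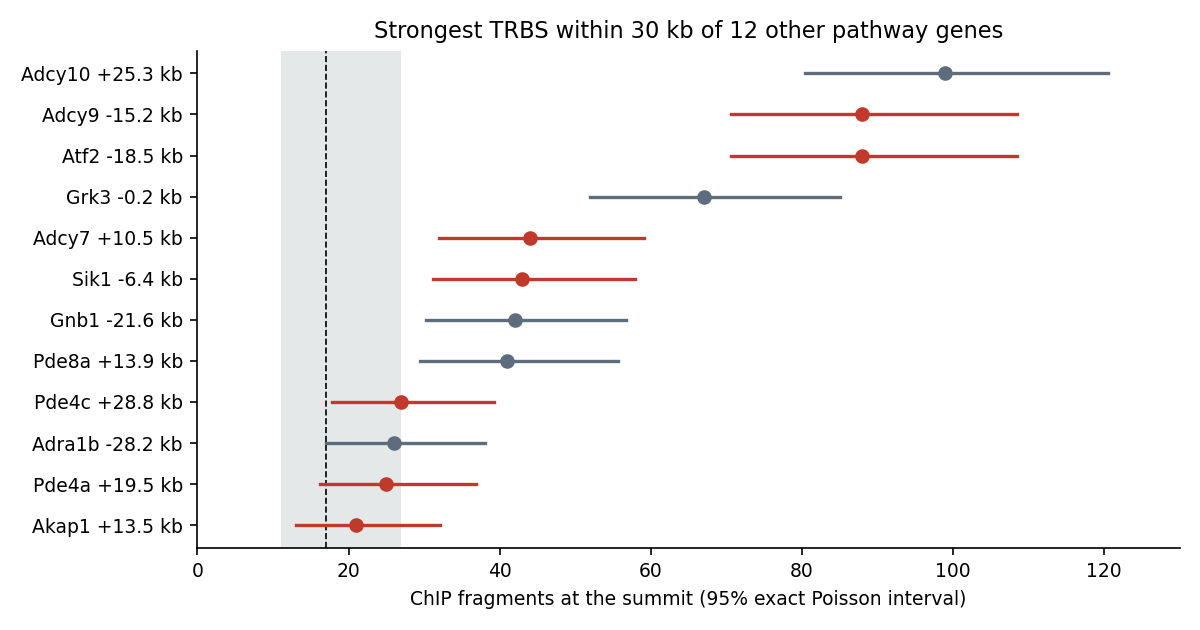
ChIP fragments at the strongest TRBS of each of the 12 further pathway genes (x axis, with 95% Poisson intervals), one gene per line with the distance from its TSS. Red marks sites that hold a DR4, the grey band spans the quartiles of all TRBS and the dashed line their median, and the sites run from 21 fragments at Akap1 to 99 at Adcy10, with the 4 lowest inside the band.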

How the data were processed

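ChIP-seq was made from brown adipose tissue, with 1 TRα1 ChIP library and 1 input library. The authors aligned paired-end reads to GRCm38 (mm10) with Bowtie2 and called peaks with MACS2, whose versions in the submitters' processing notes are 2.3.2.2 and 2.1.1.20160309.6. The deposited list gives for each peak its position and summit, a score, a fold and −log10 values of a p-value and a q-value. The deposited score is the −log10 q-value times 10, rounded down. The deposited fold is the ratio of ChIP pileup to input background with a pseudocount of 1, and this background is below 0.430 at no TRBS. The deposited −log10 p-value comes from a Poisson test by MACS2. Peaks with scores under 60 (897 of 5107) were kept in the main setting.

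From fold and p-value a whole number of fragments was solved for each summit, within 0.0005 of the deposited −log10 p for 5090 TRBS (99.67%) and for all 21 described. The lowest background of 0.430 gives an estimated depth of 2.91 M ChIP fragments (M, mega) if the smallest peak width is the fragment length. Starts were read as 0-based and are printed 1-based. The TSS was the 5′ end of each of 21938 protein-coding genes in GENCODE vM21, and sequences came from RefSeq GRCm38. Motifs were searched on both strands, with 1 mismatch allowed for C/EBP and NF1, 2 for DR1 and none for the others except the DR4. Shares carry Wilson and fragments exact Poisson 95% intervals. No test between conditions was possible. The scripts were tested on simulated data.

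The 9 genes, the pathway list and the motifs were chosen with earlier results of these data known. Named were all 9 genes with every TRBS within 100 kb, and of the 75 further genes the 12 whose strongest near TRBS had the highest score among those with a fold of at least 5. Alternatives were the distance limit, the score minimum, the choice of TSS and the mismatches of the DR4.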

Additional observations from a re-analysis of the deposited data

How the results depend on the processing

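The counts of genes and TRBS at the limits of 30 and 100 kb, of genes with at least 2 TRBS within 30 kb, of TRBS with a DR4 and of further pathway genes were recomputed under other settings. This gave 40 values, of which 32 stayed within 1.5 times the reported one and 8 did not. With a limit of 10 kb, 3 of the 9 genes had a TRBS in place of 5, against 8.09% of all protein-coding genes. There were then 4 TRBS in place of 12, 1 gene (Prkaca) with at least 2 in place of 5 (1.29% of all protein-coding genes in place of 4.55%), and 8 of the 75 further pathway genes in place of 19. With a score of at least 100, the TRBS within 30 kb fell from 12 to 7 and the genes with at least 2 from 5 to 2. The TRBS that hold a DR4 went from 5 to 0 when only 1 mismatch was allowed and to 18 when 3 were allowed. The share of the 21 sites was below that of all TRBS at 2 mismatches (23.8% against 31.98%) and above it at 3 (85.7% against 72.5%). A tighter limit, a higher score minimum and fewer mismatches leave fewer sites by construction. RefSeq starts could replace the GENCODE start for 6 of the 9 genes, and the counts of genes and TRBS then stayed within 1.5 times. This alternative, and those for genes with at least 2 TRBS, were chosen after seeing the data. With 1 library of each kind no replicate could be left out. No paired analysis was possible because each group held 1 library. Depth limits what a missing TRBS can show, since coverage outside the peaks was not analysed here.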
